A study of Gallus gallus with 54 samples.

Results

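The granulosa cell (GC) layer of untreated hens was compared between follicles just before and just after selection. The members were chosen by label alone: every GC library of the blank (NC) group at the syf 6 mm stage (3 libraries) and at the F5 stage (3 libraries), which are 6 of the 54 RNA-Seq libraries of the study. The hens were White Leghorns of 35 to 40 weeks that received water in a feeding experiment with hormonal drugs, and no GC group compared here carries a transgene or mutation. A syf 6 mm follicle is a small yellow follicle of 6 mm, still outside the hierarchy, and F5 is the fifth follicle of the preovulatory hierarchy. By the study's sample list, follicles of both stages came from the same 3 numbered hens. For reference, the same pair of stages was taken from GCs of hens fed 100 mg of the androgenic steroid mestanolone (mes, 3 libraries a stage) and from theca cells (TCs) of the NC hens (3 libraries a stage), also White Leghorns of 35 to 40 weeks.

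In the hen, follicles grow slowly until a single small yellow follicle is selected to enter the hierarchy of yolk-filling follicles that will ovulate in turn. Before selection the granulosa layer is held in an undifferentiated state, responds mainly to follicle-stimulating hormone and makes little steroid. After selection it gains luteinizing hormone responsiveness, accumulates cAMP on stimulation and begins to make progesterone, while the theca layer outside it makes androgens and estrogens. The layers are separated by a basement membrane and are peeled apart by hand.

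Total counts ran from 33513156 to 45917714 per library at 6 mm and from 43273632 to 55378619 at F5. Spearman correlations over genes were 0.901 to 0.933 among the 6 mm libraries, 0.948 to 0.972 among the F5 libraries and 0.815 to 0.920 between the stages, so the 6 mm libraries differed more among themselves. Expression levels are given as FPKM (fragment counts scaled by transcript length and by the mapped fragments of the library), and changes as log2 fold changes of F5 over 6 mm from the counts. Taken on FPKM, the median log2 ratio of F5 over 6 mm was -0.28 over the 13172 genes with a mean of at least 1 FPKM at either stage, against 0.04 for the same genes after TMM scaling of the counts. FPKM ratios therefore lie slightly below the fold changes reported beside them.

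RNA of other cells was not equal in the 6 libraries. CYP17A1, the theca enzyme that makes androgens, was at 347, 6.32 and 17.2 FPKM in 6 mm replicates 1, 2 and 3, at 0.535, 1.74 and 1.11 FPKM in the F5 replicates, and at 753 to 1267 FPKM in the TCs at 6 mm. DCN, the matrix proteoglycan decorin, was at 46.4, 0.0551 and 66.5 FPKM at 6 mm, at 0 to 0.0527 FPKM at F5 and at 519 to 599 FPKM in the TCs. Averaged over all 12 theca markers, the level was 219, 6.88 and 179 FPKM in the 6 mm replicates, 0.820 to 1.25 FPKM at F5 and 871 to 898 FPKM in the 6 mm TCs. The 6 mm replicates 1 and 3 thus stood far above replicate 2, in which 4 of the 12 markers were under 0.1 FPKM, and far above every F5 library, in which 4 to 6 were. GC 6 mm libraries of the mes hens had 2.60 to 5.42 FPKM, close to NC replicate 2.

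**Figure D1:**
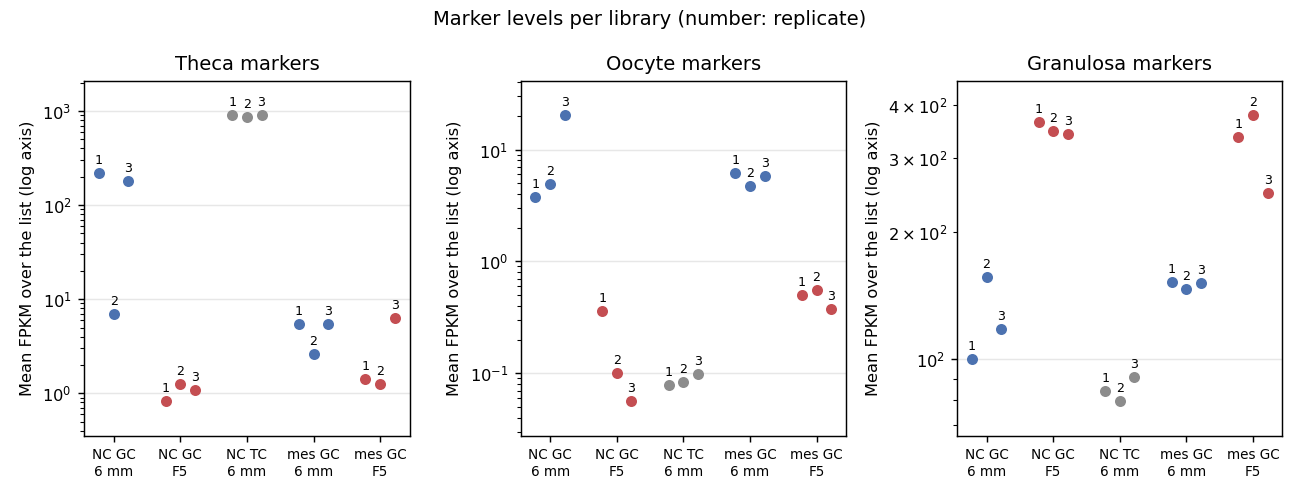
Mean FPKM over the theca (12 genes), oocyte (7 genes) and granulosa (8 genes) marker lists in each library, on log axes. The numbers are replicates, and 6 mm replicates 1 and 3 of the NC GCs lie at 219 and 179 FPKM for the theca list against 6.88 FPKM in replicate 2.

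Oocyte markers also separated the stages. The mean over 7 genes was 3.76, 4.88 and 20.2 FPKM in the 6 mm replicates and 0.363, 0.0997 and 0.0560 FPKM at F5, and the 3 mes libraries at 6 mm had 4.70 to 6.20 FPKM. Levels in the TCs at 6 mm were 0.0786 to 0.0991 FPKM, so these genes did not follow theca RNA. Leukocyte markers were highest in 6 mm replicate 3 (73.1 FPKM, against 17.1 and 6.01 in the others and 6.57 to 25.99 at F5), and endothelial markers in 6 mm replicates 1 and 3 (6.10 and 7.81 FPKM, against 1.52 in replicate 2 and 1.73 to 2.58 at F5). Of 5 endothelial markers tested CLDN5 was called higher at F5 and none lower, while their median log2 fold change was -4.85. Surface epithelium markers were at 25.3 to 55.7 FPKM at 6 mm, 1.73 to 5.39 FPKM at F5 and 83.7 to 105 FPKM in the 6 mm TCs. The mean over 8 granulosa markers was 100.4, 156 and 118 FPKM in the 6 mm replicates, 342 to 365 FPKM at F5 and 79.6 to 90.7 FPKM in the 6 mm TCs, so at 6 mm it separated the layers only narrowly, and no marker was under 0.1 FPKM in either layer. Of the 8 markers INHA was called higher at F5, AMH and WT1 were called lower and 5 were not called by edgeR. The rise of the mean to F5 therefore does not stand for the list as a whole. FOXL2, a transcription factor of granulosa identity, was at 321, 381 and 355 FPKM at 6 mm, at 525, 594 and 639 FPKM at F5 and at 179 to 181 FPKM in the 6 mm TCs, whereas the mean of AMH was close in both layers at 6 mm (239.6 FPKM in GCs and 230.5 FPKM in TCs). The share that RNA of other cells had in each fall below was not tested, and the alternatives given beside a fall do not measure it. In such bulk layers, fewer cells of a type and less RNA per cell cannot be told apart.

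Between the stages, 1002 of 16279 genes tested (6.16%) passed an edgeR adjusted p of 0.05, an absolute log2 fold change of 1.5 and a mean of 1 FPKM at either stage. Of these, 383 rose to F5 (2.35% of the genes tested) and 619 fell (3.8%), and 4990 genes had an unadjusted p under 0.05. The median gene tested had a log2 fold change of -0.02. Rising genes went from a median of 6.41 FPKM to 31.4 FPKM, with a median log2 fold change of 2.36. Falling genes went from a median of 7.22 FPKM to 0.276 FPKM, with a median of -3.86. For all 383 rising genes every F5 library lay above every 6 mm library, and for 618 of 619 falling genes every F5 library lay below. Of the genes tested 9.13% and 29.9% were separated in this way in FPKM. For the called genes this was nearly fixed in advance, since they were called from these same libraries, so it is no separate evidence.

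The counts depended on single libraries. Without 6 mm replicates 1, 2 or 3 the rising genes numbered 94, 642 and 57, and without F5 replicates 1, 2 or 3 they numbered 234, 30 and 9. Falling genes numbered 104, 1118 and 25 without the 6 mm replicates in turn, and 231, 13 and 1 without the F5 replicates. In each of these 6 fits all 383 and all 619 genes kept their sign and had an unadjusted p under 0.05. This was nearly fixed in advance, since the genes were called from these same libraries. Limma-voom with sample quality weights called 705 rising and 1148 falling genes, and DESeq2 called 563 and 1596.

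**Figure D2:**
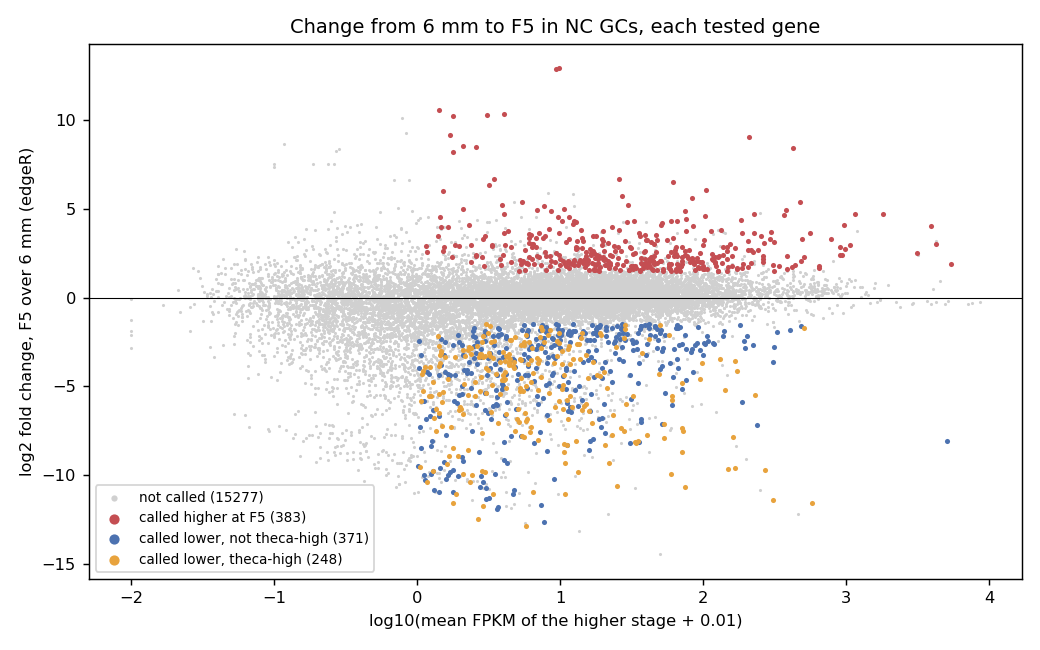
Log2 fold change of F5 over 6 mm against the mean FPKM of the higher stage (log10 scale, 0.01 added) for each of the 16279 genes tested in NC GCs. Called genes lie at 1 FPKM or more by the rule for a call, and the 383 rising genes had a median of 31.4 FPKM at F5. The 248 called falling genes that are theca-high mix with the 371 that are not.

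To mark the falls that theca RNA could touch, a gene was named theca-high when its mean in the 6 mm TCs was at least 2 times its level in 6 mm replicate 2, the GC library at that stage with little theca RNA. Of all genes tested 22.3% were theca-high. They made up 248 of the 619 falling genes (40.1%) and 115 of the 383 rising genes (30.0%). The other 371 falling genes (59.9%) lay below this ratio of 2, and some of them were still higher in the theca layer. TUBB6, for example, had a mean of 62.9 FPKM in the 6 mm GCs and 101.7 FPKM in the 6 mm TCs. Replicate 2 alone lay above every F5 library for 618 of the 619 falling genes, 247 of the 248 theca-high genes among them. Since replicate 2 is among the libraries that made the calls, this restates the separation of the stages and is no separate evidence. With the theca marker level as a covariate the median log2 fold change of the 371 genes went from -3.38 to -3.20, and with 6 mm replicates 1 and 3 both left out to -3.22, while that of the 248 theca-high genes went from -4.71 to -2.34 and -2.67. For the 383 rising genes it went from 2.36 to 2.15 and 2.12. The class is set by the level in replicate 2, so theca-high genes tend to be low in that library. With only replicate 2 left at 6 mm, the smaller fall of theca-high genes is therefore partly built in, as is the firmer value of the 371. Rising genes, which need a low level at 6 mm, are favoured for the class in the same way. With the covariate, which differs between the stages, edgeR called 0 genes (2024 had an unadjusted p under 0.05), and the cause was not tested. In the other fit a single library stands for 6 mm, so only its changes are given here. A falling gene below is followed by its class wherever it was theca-high.

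The clearest single rises, those with the smallest p, were in genes with tightly matched replicates. TFAP4, a helix-loop-helix transcription factor (gene16378, chromosome 14 of Gallus_gallus-5.0, 12732138 to 12739294), was at 16.1, 16.2 and 16.3 FPKM at 6 mm and at 116, 94.7 and 89.3 FPKM at F5. Its log2 fold change was 2.96 (standard error 0.19, edgeR adjusted p = 0.00614). LYPD6, a membrane protein of the Ly6 family (gene12097, chromosome 7, 35077394 to 35104092), went from 0.631, 0.583 and 0.642 FPKM to 13.97, 10.5 and 10.2 FPKM, a log2 fold change of 4.54 (standard error 0.27, adjusted p = 0.00614). FIBIN, a secreted protein known from fin bud growth in zebrafish (gene9368, chromosome 5, 3463985 to 3465683), went from 48.3, 60.5 and 59.7 FPKM to 511, 685 and 497 FPKM. The spread within a stage was a small part of the gap in all 3 genes.

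Rises of similarly small p were those of ALB, FDX1L, VPS13A and ADGRD2. ALB, serum albumin, the main carrier protein of plasma (gene8400, chromosome 4, 51168578 to 51181602), was at 1.68, 0.943 and 2.00 FPKM at 6 mm and at 367, 367 and 553 FPKM at F5. Its log2 fold change of 8.45 (standard error 0.45, edgeR adjusted p = 0.00614) was the second largest among rising genes that were called, had a symbol and were at 10 FPKM or more. FDX1L, a mitochondrial ferredoxin (gene7470, chromosome 4, 177308 to 180789), rose from 11.2, 20.8 and 15.0 FPKM to 292, 426 and 423 FPKM, a change of 4.93 (standard error 0.35, adjusted p = 0.00614). VPS13A, a lipid transfer protein, rose from 2.32 to 2.39 FPKM at 6 mm to 11.2 to 15.1 FPKM at F5, and ADGRD2, an adhesion G protein-coupled receptor, from 0.561 to 0.693 FPKM to 16.6 to 38.8 FPKM. VPS13A overlaps GNA14, and ADGRD2 overlaps NR5A1, so reads of these pairs may have been shared, as may those of ANGPT2, ZAR1 and HERPUD1 below with the genes they overlap. TFAP4, LYPD6, FIBIN, ALB, FDX1L, VPS13A and ADGRD2 were the 7 named genes that stayed called whichever of the 6 libraries was left out.

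CES1, TPST1, CEL and RASD1 also rose. CES1, a carboxylesterase, went from 5.15, 5.50 and 5.46 FPKM to 37.4, 23.4 and 32.0 FPKM, and TPST1, which sulfates tyrosines of secreted proteins, from 13.3, 17.5 and 25.0 FPKM to 174, 210 and 174 FPKM. CEL, the bile salt-dependent lipase, went from 1.08, 1.33 and 0.0622 FPKM to 77.8, 59.5 and 46.5 FPKM (log2 fold change 6.50, standard error 1.00, edgeR adjusted p = 0.0208). RASD1, a steroid-inducible Ras protein, rose from 1.65, 1.703 and 2.39 FPKM to 47.9, 66.7 and 199 FPKM, where F5 replicate 3 stood highest and the change was 5.26 without it against 6.09 with it. All 4 lay wholly above at F5. The call of CES1 and TPST1 was lost without F5 replicate 3 alone, that of RASD1 without 6 mm replicate 3 alone, and that of CEL without 6 mm replicate 1 or any F5 replicate.

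Among the receptors and second messengers of gonadotropin action, 30 genes were tested, 3 rose and 2 fell, with a median log2 fold change of 0.13. The counts of this and the later lists stand against 2.35% rising and 3.8% falling over all genes tested. LHCGR, the luteinizing hormone receptor, was at 14.1, 10.2 and 13.3 FPKM at 6 mm and at 32.7, 73.8 and 73.8 FPKM at F5. The F5 libraries lay above all others, with replicate 1 the lowest of the 3. FSHR, the follicle-stimulating hormone receptor, was at 20.4, 40.2 and 29.0 FPKM and then at 47.6, 50.5 and 65.3 FPKM, under the fold threshold. PDE4D, a phosphodiesterase that breaks down cAMP (gene22681, chromosome Z, 18249855 to 18787778), went from 2.90, 1.73 and 2.28 FPKM to 9.20, 15.4 and 17.96 FPKM, a log2 fold change of 2.79 (standard error 0.30, edgeR adjusted p = 0.0112). GRK5, a kinase that phosphorylates active receptors of this class and uncouples them (gene11254, chromosome 6, 30061786 to 30227252), rose from 0.1, 0.118 and 0.284 FPKM to 2.74, 7.84 and 5.63 FPKM, a change of 5.37 (standard error 0.61, adjusted p = 0.0123). RGS16, which switches off G protein alpha subunits (gene12369, chromosome 8, 5614273 to 5619060), fell from 23.1, 19.1 and 19.2 FPKM to 2.42, 0.361 and 1.02 FPKM, by 3.63 on the log2 scale (standard error 0.70, adjusted p = 0.0321). It was not theca-high, at a mean of 0.550 FPKM in the 6 mm TCs. The other fall, of the phosphodiesterase PDE3A, was of a theca-high gene. All 5 calls were lost without F5 replicate 2 or 3, all but that of GRK5 without 6 mm replicate 3, those of LHCGR, RGS16 and PDE3A without 6 mm replicate 1, and that of PDE3A also without F5 replicate 1. RGS16 fell by 4.54 without F5 replicate 1.

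In steroid synthesis 20 genes were tested, 3 rose and 2 fell, with a median of 0.16. HSD3B2, the dehydrogenase that forms progesterone from pregnenolone (gene1370, chromosome 1, 78465921 to 78476441), was at 31.8, 82.2 and 75.5 FPKM at 6 mm and at 131, 709 and 635 FPKM at F5. Its change was 3.30 (standard error 0.72, edgeR adjusted p = 0.0409), with the lowest library of each stage coming from the hen numbered 1. FDXR, the reductase that passes electrons to the ferredoxin of CYP11A1, rose from 19.6 to 30.9 FPKM up to 58.6 to 93.3 FPKM, and STARD4, a cholesterol carrier, from 2.58 to 4.22 FPKM up to 7.21 to 15.0 FPKM. CYP11A1, which cuts the cholesterol side chain, was at 152, 169 and 7.72 FPKM at 6 mm and at 1230, 1429 and 928 FPKM at F5, a change of 3.75 (standard error 1.04) that missed the threshold with an edgeR adjusted p of 0.0668. Its 6 mm replicate 3 lay far below the others of its stage, while every F5 library lay above all of them. The calls of HSD3B2, FDXR and STARD4 were lost without 6 mm replicates 1 or 3 or F5 replicates 2 or 3.

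Both falls in this list were of enzymes that convert sex steroids, and both genes were theca-high. HSD17B2, which inactivates estradiol and testosterone (gene14656, chromosome 11, 15966032 to 15976912), was at 2.74, 3.15 and 11.4 FPKM at 6 mm and had no count in any F5 library. With 3 counts put in each F5 library it would be 399-fold lower at F5, or 203-fold without 6 mm replicate 3. A fully aligned pair adds up to 4 counts, so this floor lies below a pair and the fold is not given as a lower bound. HSD17B1, which forms estradiol from estrone, went from 356, 81.3 and 84.0 FPKM to 14.3, 6.76 and 2.26 FPKM, a fall of 4.13 on the log2 scale (standard error 0.91, edgeR adjusted p = 0.0417) that was 3.05 without 6 mm replicate 1 and 4.83 without F5 replicate 1. In replicate 2, with little theca RNA, the levels of 3.15 and 81.3 FPKM lay above every F5 library. The same held for 247 of the 248 theca-high falling genes, and it is no separate evidence. The part of theca RNA in both falls was not tested. Both genes were also called lower at F5 in the mes GCs, HSD17B1 from a mean of 64.4 FPKM to 13.2 FPKM and HSD17B2 from 2.73 FPKM to 0.132 FPKM. The call of HSD17B1 was lost when any library other than 6 mm replicate 2 was left out, and that of HSD17B2 without 6 mm replicate 3 or F5 replicates 2 or 3.

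Of 29 cholesterol genes tested, 6 rose and 1 fell, and their median was 1.08 against -0.02 over all genes. In the mes GCs 3 of the 29 rose and 3 fell, and the median was -0.09. NPC2, the lysosomal protein that hands cholesterol out of late endosomes (gene10061, chromosome 5, 37970538 to 37972718), was among the most abundant mRNAs of F5 GCs. It went from 215, 469 and 214 FPKM to 3981, 4121 and 3689 FPKM, a change of 4.04 (standard error 0.45, edgeR adjusted p = 0.0117). Smaller rises were those of SCAP (2.25) and SREBF2 (1.76), sensor and transcription factor of the sterol response, and the synthesis enzymes DHCR7 (1.66) and SQLE (1.61). INSIG2, which retains SCAP in the endoplasmic reticulum, fell from 4.67, 1.94 and 6.63 FPKM to 0.162, 0.404 and 0.162 FPKM, was theca-high, and no longer passed with the hen as a block (edgeR adjusted p = 0.0605). In the mes GCs SQLE and DHCR7 did not follow, with changes of -0.09 and 0.04, while NPC2 (3.46) and SCAP (1.55) were called. The calls of NPC2, SCAP, SREBF2, DHCR7, SQLE and INSIG2 were lost without 6 mm replicate 3 and without F5 replicate 2 or 3, and all of these but that of NPC2 also without 6 mm replicate 1. That of INSIG2 was also lost without F5 replicate 1, and its fall was 4.35 without F5 replicate 2.

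Of 30 nuclear receptors tested 3 were called, and all of these rose. NR5A2, an orphan receptor that drives steroid enzyme genes (gene12250, chromosome 8, 1591201 to 1687248), had the largest change of any rising gene that was called, had a symbol and was at 10 FPKM or more. It was at 1.03, 0.0773 and 0.137 FPKM at 6 mm and at 128, 314 and 185 FPKM at F5, a change of 9.07 (standard error 1.25, edgeR adjusted p = 0.0175) that was 11 without 6 mm replicate 1. That replicate is the one with the most theca RNA, the TCs had a mean of 6.59 FPKM at 6 mm, and the part of theca RNA in its 1.03 FPKM was not tested. NR5A1, its relative and a master regulator of steroid-producing cells, rose from 43.8, 44.4 and 30.4 FPKM to 218, 254 and 325 FPKM, and PPARG, a lipid-sensing receptor, from 2.63, 11.3 and 4.18 FPKM to 30.5, 43.9 and 47.8 FPKM. PPARG rose by 4.10 on the log2 scale without 6 mm replicate 2 and by 3.24 with all libraries. NR5A1 and NR5A2 lost their call without F5 replicate 2 or 3, NR5A2 also without 6 mm replicate 3, and PPARG without any library except 6 mm replicate 2.

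**Figure D3:**
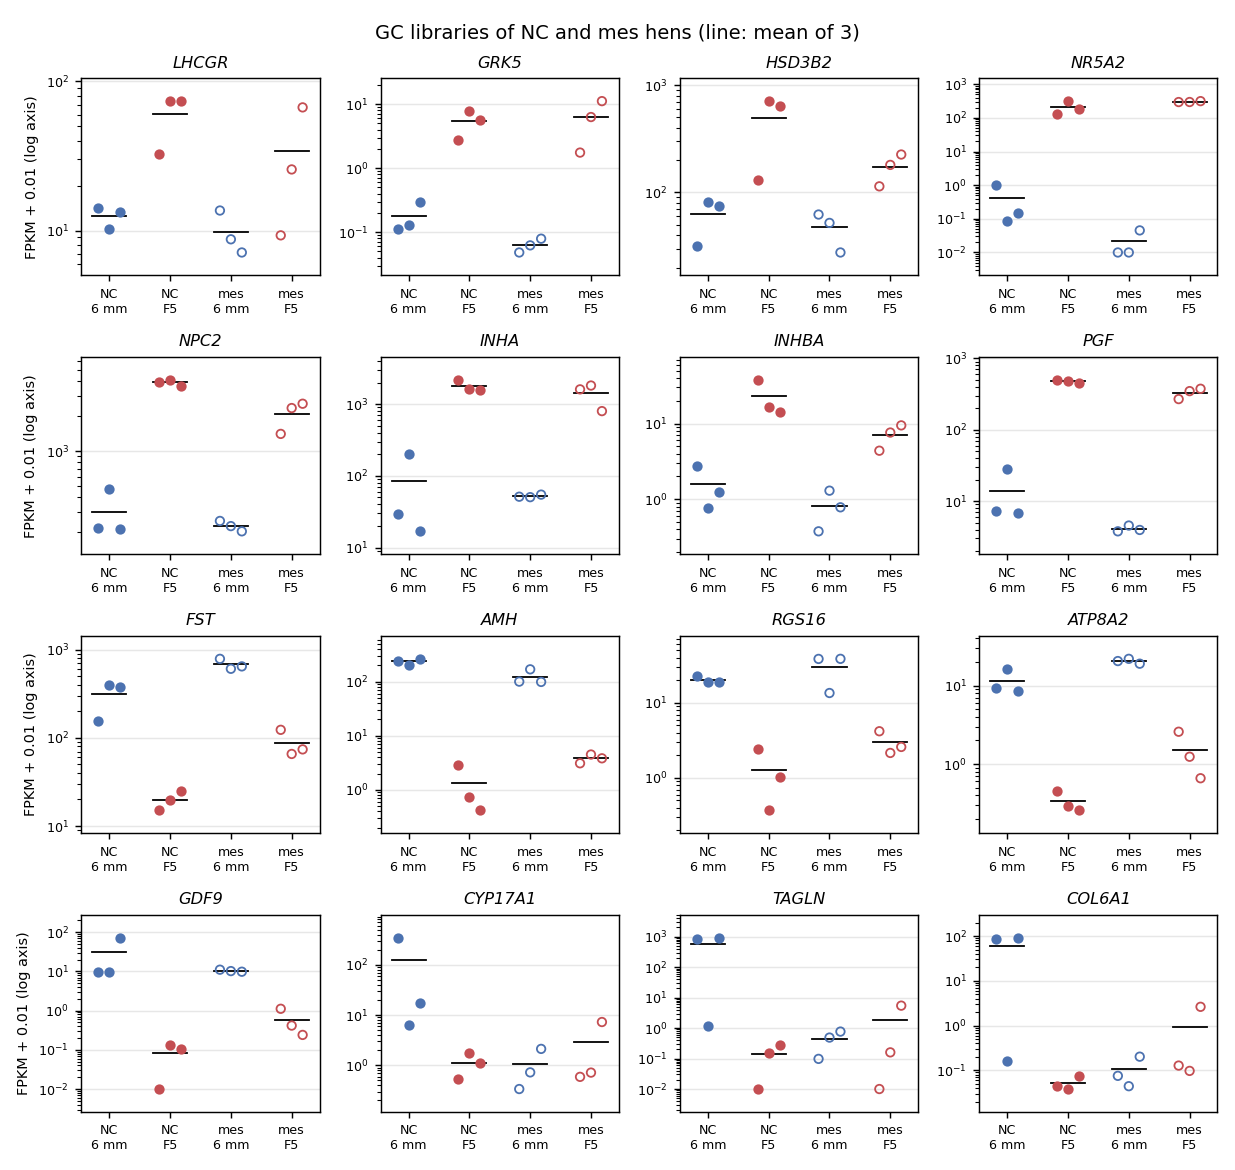
FPKM (0.01 added, log axes) of 16 genes in each GC library, with filled points for NC hens, open points for mes hens and a line at the mean of 3. NR5A2 lies at or below 1.03 FPKM in all 6 mm libraries and above 100 FPKM in all F5 libraries, whereas TAGLN and COL6A1 are high only in the NC 6 mm replicates 1 and 3.

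The inhibin and activin family changed in both directions. Of 20 genes tested 3 rose and 4 fell, with a median of 0.04. INHA, the subunit common to the inhibins (gene11876, chromosome 7, 22176226 to 22177904), was at 29.1, 205 and 16.8 FPKM at 6 mm and at 2173, 1648 and 1596 FPKM at F5. It rose by 4.74 (standard error 1.04, edgeR adjusted p = 0.0415) and by 6.62 without 6 mm replicate 2, the highest of its stage. INHBA, the activin beta A subunit, went from 2.77, 0.746 and 1.24 FPKM to 37.7, 16.8 and 14.3 FPKM, and SMAD2, the transducer of activin signals, from 133, 360 and 63.0 FPKM to 881, 1078 and 1003 FPKM. Without 6 mm replicate 2 the rise of SMAD2 was 3.65 instead of 2.73, and without 6 mm replicate 1 that of INHBA was 4.92 instead of 3.96.

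The falls of this list included a hormone and an antagonist. AMH, anti-Müllerian hormone, a marker of immature granulosa (gene21646, chromosome 28, 2018795 to 2022986), was at 247, 207 and 265 FPKM at 6 mm and at 2.84, 0.715 and 0.410 FPKM at F5. Its fall of 7.18 on the log2 scale (standard error 0.86, edgeR adjusted p = 0.0131) was 8.36 without F5 replicate 1. FST, follistatin, which binds and inactivates activin (gene22638, chromosome Z, 16072452 to 16078209), fell from 156, 402 and 373 FPKM to 15.1, 19.5 and 25.1 FPKM, by 3.65 (standard error 0.44, adjusted p = 0.0131). Neither gene was theca-high. The other falls were of the theca-high genes TGFB2 (3.93, 1.38 and 8.03 FPKM to 0.258 to 0.437 FPKM) and TGFBR2, a transforming growth factor receptor that was at 2.60, 0.241 and 2.75 FPKM and without a count at F5. With 3 counts put in each F5 library TGFBR2 would be 114-fold lower, which is not a lower bound. With the hen as a block both genes were not called (TGFB2 adjusted p = 0.0541, TGFBR2 0.0503, edgeR), and TGFB2 fell by 2.77 without 6 mm replicate 3. AMH and FST lost their call without 6 mm replicate 3 or F5 replicates 2 or 3, INHBA without these or F5 replicate 1, and INHA, SMAD2, TGFB2 and TGFBR2 without any library other than 6 mm replicate 2.

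Among 24 genes of BMP and GDF signalling 2 rose and 3 fell, with a median of 0.52. BAMBI, a pseudoreceptor that dampens BMP and TGF-beta signals, rose from 84.8, 158 and 79.5 FPKM to 246, 291 and 383 FPKM. GREM1, a secreted BMP antagonist, had no count at 6 mm and was at 0.491, 7.93 and 3.79 FPKM at F5. With 3 counts put in each 6 mm library it would be 40.9-fold higher at F5, or 21.7-fold without F5 replicate 2. These folds are not lower bounds. The block of hens took it out of the calls (edgeR adjusted p = 0.0597). SMAD7, an inhibitor of the same pathways, fell from 97.5, 153 and 102 FPKM to 18.3, 7.99 and 22.5 FPKM (log2 fold change -2.54, standard error 0.42, edgeR adjusted p = 0.0244, with the block 0.0519). BMP6, a ligand, fell from 2.97, 2.66 and 7.52 FPKM to 0.383, 0.143 and 0.252 FPKM and was theca-high. GDF9, the ligand made by oocytes, is described with the oocyte genes. Every call here was lost without any library other than 6 mm replicate 2.

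Some signals that granulosa cells send to vessels and to the theca were among the rising genes. PGF, placental growth factor, a ligand of the VEGF receptor FLT1 (gene10069, chromosome 5, 38155954 to 38161898), went from 7.32, 27.8 and 6.85 FPKM to 498, 478 and 450 FPKM, a change of 5.41 (standard error 0.69, edgeR adjusted p = 0.0144), or 6.40 without 6 mm replicate 2. VEGFA, the main vessel growth factor, rose from 16.1, 39.8 and 19.7 FPKM to 45.5, 110 and 98.7 FPKM. ANGPT2, which loosens vessels, fell from 27.7, 47.5 and 49.8 FPKM to 5.62, 9.61 and 3.92 FPKM and was theca-high. In the list of blood vessel growth 2 of 13 genes rose and 2 fell, both of the latter theca-high. The median of this list was -1.99, and 4 of the 13 genes had a log2 fold change above 0. IHH, the hedgehog ligand that granulosa cells send to the theca, rose from 130, 141 and 106 FPKM to 389, 302 and 330 FPKM and was the 1 gene called of 13 in hedgehog signalling. Without 6 mm replicate 1 or 3 or F5 replicate 2 or 3 the calls of PGF, VEGFA, ANGPT2 and IHH were lost, and those of VEGFA and ANGPT2 also without F5 replicate 1.

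In WNT signalling 3 of 36 genes rose and 5 fell, 4 of them theca-high, with a median of -0.53 (2 and 3 with the hen as a block). WNT4, a ligand needed for female gonad development in mammals, was at 122, 401 and 137 FPKM and then at 1149, 734 and 908 FPKM, a change of 2.40 (standard error 0.53, edgeR adjusted p = 0.0420, with the hen as a block 0.0586) that was 3.17 without 6 mm replicate 2. DKK3, a secreted protein of the Dickkopf family, went from 124, 74.1 and 190 FPKM to 636, 479 and 409 FPKM, and the ligand WNT2 from 0.584 to 1.16 FPKM up to 3.48 to 4.65 FPKM. WNT6, another ligand, fell from 108, 73.2 and 67.8 FPKM to 15.57, 4.74 and 7.198 FPKM and was the falling WNT gene that was not theca-high. It fell by 3.54 without F5 replicate 1 instead of 2.91. In Notch signalling 4 of 11 genes fell, the ligands DLL4 and JAG1, the modifier LFNG and the target HEYL, and all 4 were theca-high. Their levels in replicate 2 at 6 mm were 1.05, 0.610, 3.49 and 1.61 FPKM, above the F5 levels of at most 0.568 FPKM. Since replicate 2 helped to make these calls, this is no separate evidence. With the hen as a block JAG1 (edgeR adjusted p = 0.112) and LFNG (0.0543) were not called. In the mes GCs DLL4, LFNG and HEYL were called lower and JAG1 was not (0.14, edgeR adjusted p = 0.891). IGFBP4, which binds insulin-like growth factors, rose from 218, 321 and 106 FPKM to 850, 778 and 1116 FPKM (2.40, with the block adjusted p = 0.0541). All calls of this paragraph were lost without 6 mm replicate 3, F5 replicate 2 or F5 replicate 3 and without 6 mm replicate 1, and all but that of WNT6 also without F5 replicate 1. Without 6 mm replicate 3 the changes were -3.17 (DLL4), -4.31 (JAG1), -2.95 (LFNG) and -5.802 (HEYL), instead of -3.98, -5.25, -3.70 and -6.49. That of HEYL also moved by over 1.5 times without F5 replicate 2 or 3 and stayed between -7.14 and -5.802 whichever library was left out.

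**Figure D4:**
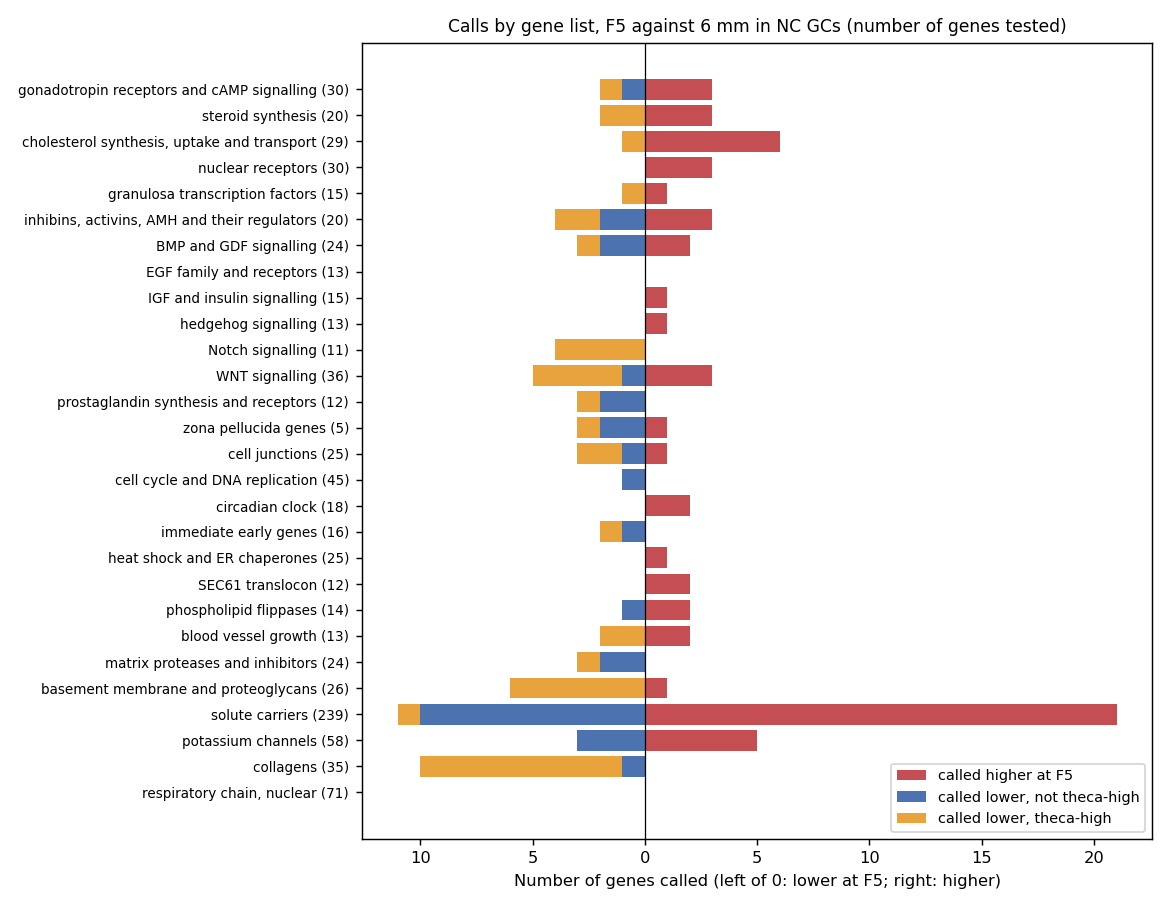
Number of genes called in each list, with rising genes to the right of 0 and falling genes to the left, split into theca-high and not theca-high; the number of genes tested is in brackets. In the lists of collagens, Notch signalling and basement membrane most or all falling genes were theca-high, and in the solute carriers 1 of 11 was.

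Of 5 zona pellucida genes tested, which form the coat of the oocyte, 1 rose and 3 fell, with a median of -6.86. The oocyte genes named here fell as well. ZP3, a zona pellucida protein that avian granulosa cells make for the perivitelline layer (gene13805, chromosome 10, 2564786 to 2568207), was among the most abundant mRNAs and rose from 1577, 2049 and 1900 FPKM to 5955, 5185 and 5227 FPKM, a change of 1.90 (standard error 0.30, edgeR adjusted p = 0.0232). ZP4 fell from 7.21, 8.63 and 33.1 FPKM to 0 to 0.132 FPKM and ZPAX from 1.27, 1.99 and 6.57 FPKM to 0 to 0.0461 FPKM. Both were at or below 0.0375 FPKM on average in the 6 mm TCs. GDF9, the growth factor of the oocyte (gene15821, chromosome 13, 17156641 to 17159347), fell from 9.59, 9.80 and 72.7 FPKM to 0, 0.125 and 0.0951 FPKM, by 8.19 (standard error 1.42, adjusted p = 0.0258). ZAR1, a maternal RNA-binding protein, fell from 3.27, 3.78 and 17.1 FPKM to 0.0262 to 0.0983 FPKM. In all 4 falls 6 mm replicate 3 was the highest library, as it was for the oocyte marker level of 20.2 FPKM. Of the 6 oocyte markers tested 2 fell, and in the mes GCs 4 of 6 did. ZP1 fell too, was theca-high (73.5 FPKM in the 6 mm TCs) and was not called in the mes GCs. The rise of ZP3 was not called in the mes GCs either, where 0 of the 5 zona pellucida genes were called higher and 3 lower. With the hen as a block ZP4 (edgeR adjusted p = 0.0590), ZPAX (0.0705) and ZP1 (0.0676) were not called. Without 6 mm replicate 3 the falls were 6.66 (GDF9), 5.51 (ZAR1) and 5.94 (ZPAX), and all calls of this paragraph were lost, as they were without F5 replicate 2 or 3. The calls of ZP3, ZP4, ZP1, ZPAX and GDF9 were also lost without 6 mm replicate 1, and those of ZP3, ZP1, ZPAX and GDF9 without F5 replicate 1. Leave-one-out values of the falls ranged from 7.09 to 13.08 for ZP4, from 5.94 to 7.93 for ZPAX, from 8.78 to 13.57 for ZP1 and from 6.66 to 8.88 for GDF9, where the upper values of ZP4 and ZP1 come from fits without the only F5 library that held a count and depend on the prior count.

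The falls with the smallest p among genes that were not theca-high had well separated stages. MYCL, a transcription factor of the Myc family (gene19962, chromosome 23, 5547194 to 5551119), was at 68.0, 83.8 and 96.8 FPKM at 6 mm and at 8.81, 6.78 and 8.21 FPKM at F5, a fall of 3.05 on the log2 scale (standard error 0.20, edgeR adjusted p = 0.00614). TUBB6, a beta tubulin (gene4631, chromosome 2, 97461972 to 97469353), went from 52.8, 73.1 and 62.8 FPKM to 6.14, 7.93 and 6.23 FPKM, a fall of 2.88 (standard error 0.23, adjusted p = 0.00614). GNG10, a G protein gamma subunit (gene23319, chromosome Z, 66386561 to 66392495), fell from 94.0, 78.2 and 129 FPKM to 9.42, 5.96 and 9.59 FPKM. DGKQ, a diacylglycerol kinase, fell from 11.3, 20.7 and 14.8 FPKM to 1.22, 0.821 and 1.16 FPKM. MPZL3, a membrane protein with an immunoglobulin domain, fell from 13.6, 22.6 and 32.8 FPKM to 0.855, 0.524 and 0.637 FPKM. These 5 genes were all called lower in the mes GCs as well, with changes of -1.99, -3.40, -2.98, -3.11 and -3.85. The calls of MYCL, TUBB6, GNG10 and DGKQ were lost without F5 replicate 3 alone (highest edgeR adjusted p = 0.0575), and that of MPZL3 without F5 replicate 2 or 3.

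NEDD4L, a ubiquitin ligase, BACH2, a transcriptional repressor, PGBD5, a gene derived from a transposase, and SNX5, a sorting nexin, completed this group, with falls of 2.62, 2.17, 2.92 and 1.64. Their levels at 6 mm were 8.37 to 11.3, 3.97 to 4.50, 6.07 to 7.40 and 87.1 to 97.1 FPKM, and at F5 1.141 to 1.35, 0.640 to 0.837, 0.438 to 0.908 and 20.3 to 26.7 FPKM. All 4 were called lower in the mes GCs. TACC1, a centrosome protein, PDZRN3, a ubiquitin ligase, and GPR162, an orphan receptor, had small p too and were theca-high. In 6 mm replicate 2 they were at 7.52, 4.36 and 4.34 FPKM, within or close to the 7.95 and 11.8, 4.20 and 8.97, and 6.87 and 6.56 FPKM of replicates 1 and 3, and far above the F5 levels of at most 0.662, 0.0558 and 0.373 FPKM. Replicate 2 is among the libraries that made these calls, so its levels are no separate evidence. TACC1 and PDZRN3 were called lower in the mes GCs and GPR162 was not (-0.91, edgeR adjusted p = 0.0605). The calls of TACC1 and PDZRN3 were lost without F5 replicate 3, those of NEDD4L, BACH2 and GPR162 without F5 replicate 2 or 3, that of PGBD5 without 6 mm replicate 3 or F5 replicate 3, and that of SNX5 without any of these 3.

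TAGLN, COL6A1, IGLL1 and GRP, all theca-high, had large falls. TAGLN, a smooth muscle protein, was at 811, 1.18 and 924 FPKM at 6 mm and at 0 to 0.260 FPKM at F5. COL6A1, a collagen VI chain, was at 86.6, 0.153 and 92.0 FPKM and then at 0.0285 to 0.0654 FPKM. IGLL1, an immunoglobulin light chain gene, was at 58.0, 1.94 and 868 FPKM, with at most 0.249 FPKM at F5. GRP, gastrin-releasing peptide, was at 213, 2.17 and 8.50 FPKM and then at 0 to 0.104 FPKM. In 3 of these 4 genes 6 mm replicate 2 lay far below replicates 1 and 3, and GRP was high in replicate 1 alone; theca markers were low in replicate 2 as well. The means of these genes in the 6 mm TCs were 455.5 to 1581 FPKM and in the mes GCs at 6 mm 0.0978 to 0.441 FPKM. None was called in the mes GCs, where the changes ran from -0.38 to 3.44. With the hen as a block COL6A1 (edgeR adjusted p = 0.0808) and TAGLN (0.102) were not called, and with the theca marker level as a covariate the change of COL6A1 was 0.08. Every call here was lost without any library other than 6 mm replicate 2, and the falls ranged with single libraries left out from 6.83 to 14.20 (GRP), 8.18 to 16.44 (IGLL1), 9.56 to 10.56 (COL6A1) and 10.99 to 12.32 (TAGLN), the upper values of GRP and IGLL1 coming from fits in which no F5 count was left. The collagens as a family had 10 falls of 35 tested, 9 of them theca-high, and a median of -2.47, against 1 fall, 4 rises and a median of 0.86 over 33 in the mes GCs. The mes F5 replicate 3 had a theca marker level of 6.25 FPKM, against 1.43 and 1.25 FPKM in replicates 1 and 2. TAGLN was at 0, 0.150 and 5.43 FPKM in the mes F5 replicates. The part of theca RNA in the mes changes was not tested. Only 3 collagens fell with the hen as a block.

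The matrix around the granulosa layer gave a rise and falls of both classes. NID2, nidogen 2, which links laminin and collagen IV in basement membranes, went from 15.1, 40.2 and 17.1 FPKM to 50.6, 213 and 150 FPKM, a change of 2.85 that was 3.43 without 6 mm replicate 2. It was the 1 rising gene of 26 in the basement membrane list, where 6 genes fell, all of them theca-high, and in the mes GCs it was called as well (2.93). In this list 2 genes rose and 2 fell with the hen as a block. COL1A2, a chain of fibrillar collagen and one of the theca markers, was at 408, 20.1 and 265 FPKM at 6 mm and at 2.98 to 5.86 FPKM at F5, and its fall of 5.48 was 4.77 without 6 mm replicate 1 and not called with the hen as a block (edgeR adjusted p = 0.0960). Among 24 matrix proteases and inhibitors 3 fell. ADAMTS1, a protease of proteoglycans, fell from 26.3, 68.2 and 48.3 FPKM to 6.74, 3.42 and 5.56 FPKM, and PLAU, urokinase, the activator of plasminogen, from 14.5, 38.5 and 44.2 FPKM to 3.14, 2.56 and 4.08 FPKM. Neither was theca-high, both were lowest at 6 mm in replicate 1, and neither was called in the mes GCs (-0.95 and -1.89). PTGS1, cyclooxygenase 1 of prostaglandin synthesis, fell from 15.99, 24.7 and 13.3 FPKM to 2.32, 5.68 and 2.37 FPKM and did so in the mes GCs too (-2.25), and 3 of 12 genes of its list fell (1 with the hen as a block). The calls of NID2 were lost without 6 mm replicate 1 or 3 or F5 replicate 2 or 3, those of ADAMTS1 and PLAU without 6 mm replicate 3 or F5 replicate 2 or 3, that of PLAU also without F5 replicate 1, that of COL1A2 without any library other than 6 mm replicate 2, and that of PTGS1 without any of the 6.

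Of 15 granulosa transcription factors tested 1 rose and 1 fell (1 and 2 with the hen as a block), with a median of -0.23. RUNX1 rose from 5.74, 9.74 and 7.81 FPKM to 14.4, 19.5 and 21.3 FPKM. WT1, a zinc finger factor needed for gonad development (gene9392, chromosome 5, 5439691 to 5471659), fell from 62.0, 12.8 and 107 FPKM to 2.17, 0.298 and 0.186 FPKM. It was theca-high by the measure used, was highest in the replicates with theca RNA, and fell in the mes GCs too, from 44.6 to 3.40 FPKM on average. Of 45 genes of the cell cycle and DNA replication only CCNB2, a mitotic cyclin, was called. It fell from 316, 315 and 355 FPKM to 97.5, 58.6 and 48.4 FPKM. The median of the list was -0.31, and 12 of the 45 genes had a log2 fold change above 0. For 26 of the 45 every 6 mm library lay above every F5 library in FPKM, against 29.9% of all genes tested. The proto-oncogene MYC fell from 45.7, 31.3 and 50.9 FPKM to 12.6, 6.53 and 8.48 FPKM. Among the epithelial genes, EPCAM, a cell adhesion molecule that was at a mean of 0.758 FPKM in the 6 mm TCs, fell from 118, 105 and 135 FPKM to 24.6, 8.11 and 13.3 FPKM, and KRT19, a theca-high keratin, from 60.6, 20.1 and 78.0 FPKM to 0.103 to 0.609 FPKM. CLDN1, a tight junction protein, fell from 14.8, 44.9 and 96.0 FPKM to 2.1 to 3.39 FPKM and was not theca-high. GJC1, a connexin, fell from 4.34 to 6.66 FPKM to 0.0282 to 0.0741 FPKM and was theca-high. Of 25 cell junction genes tested 1 rose and 3 fell (0 and 2 with the hen as a block). The rise was of CLDN5 (log2 fold change 2.34), and its call was lost without any library other than F5 replicate 1. RUNX1, WT1, CCNB2, MYC and EPCAM lost their call without 6 mm replicate 1 or 3 or F5 replicate 2 or 3, KRT19 without the last 3 of these, CLDN1 without these 3 or F5 replicate 1, and GJC1 without F5 replicate 2 or 3. Leave-one-out ranges were 5.14 to 7.65 for the fall of WT1, 6.68 to 8.02 for KRT19 and 3.13 to 4.31 for CLDN1.

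Most genes of the translocon, chaperone and flippase lists were not called: 2 of 12, 1 of 25 and 2 of 14 rose, and 1 flippase fell. SEC61A2, a subunit of the channel that takes new proteins into the endoplasmic reticulum, went from 43.4 to 51.1 FPKM up to 220 to 275 FPKM, and SEC61A1 from 44.0 to 67.7 FPKM up to 83.8 to 152 FPKM, while the other 10 genes tested of the translocon were not called. HERPUD1, an endoplasmic reticulum stress protein, was the 1 gene called of 25 heat shock and chaperone genes, from 9.52, 19.5 and 12.9 FPKM to 54.5, 63.6 and 52.0 FPKM. Among the phospholipid flippases, ATP8A1 rose from 0.617, 1.00 and 0.818 FPKM to 8.97, 14.2 and 15.4 FPKM and ATP10A from 4.29 to 5.79 FPKM up to 15.7 to 30.7 FPKM. Their relative ATP8A2 (gene2626, chromosome 1, 176736710 to 177052754) went the other way, from 9.33, 16.2 and 8.55 FPKM to 0.442, 0.282 and 0.248 FPKM, a fall of 4.76 (standard error 0.40, edgeR adjusted p = 0.00672) of a gene at 0.500 FPKM in the 6 mm TCs. The same 3 flippases were called in the same directions in the mes GCs. With the hen as a block the change of SEC61A1 was 1.47, under the fold threshold. Without F5 replicate 3 all these calls were lost, those of ATP8A2, HERPUD1, ATP10A and SEC61A1 also without F5 replicate 2, those of HERPUD1, ATP10A and SEC61A1 also without 6 mm replicate 3, and those of ATP10A and SEC61A1 also without 6 mm replicate 1.

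Of 239 genes taken by their symbol as solute carriers 21 rose and 11 fell (20 and 7 with the hen as a block). The median was 0.09, and 1 of the falling genes was theca-high. The rising genes include SLC9A3R2, which is a regulator of a carrier and not a carrier. Over all genes tested 2.35% rose and 3.8% fell. SLC12A2, the sodium, potassium and chloride cotransporter, went from 9.27, 14.5 and 10.1 FPKM to 134, 223 and 199 FPKM, and SLC2A12, a glucose transporter, from 15.1, 11.4 and 13.3 FPKM to 77.2, 118 and 110 FPKM. SLC6A4, the serotonin transporter, rose from 0.692, 1.21 and 0.961 FPKM to 2.88, 10.4 and 5.67 FPKM, by 3.04, or 2.45 without F5 replicate 2. Of 58 potassium channel genes 5 rose and 3 fell, to be set against the same shares over all genes. KCNH2, a voltage-gated channel (gene3372, chromosome 2, 311265 to 334117), was at 2.95, 1.08 and 2.40 FPKM at 6 mm and at 80.8, 97.4 and 74.2 FPKM at F5, a change of 5.62 (standard error 0.45, edgeR adjusted p = 0.00614). KCNQ1 and KCNK5, channels that carry steady potassium currents, rose from 9.04 to 21.9 and 12.4 to 19.5 FPKM up to 35.7 to 45.3 and 32.9 to 61.1 FPKM. The clock genes ARNTL, from 20.6, 9.08 and 15.7 FPKM to 47.8, 33 and 40.2 FPKM, and NPAS2, from 0.491 to 1.42 FPKM up to 4.54 to 9.28 FPKM, rose out of 18. None of the 71 nuclear genes of the respiratory chain was called by edgeR, with a median of 0.10, and of the 84 genes taken by their symbol as ribosomal proteins the 1 called was RPS6KA6, which is a kinase. SLC12A2, SLC2A12 and KCNH2 lost their call without F5 replicate 3 alone, SLC6A4, KCNK5 and NPAS2 without 6 mm replicate 1 or 3 or F5 replicate 2 or 3, KCNQ1 without these or F5 replicate 1, and ARNTL without any of the 6 libraries, while NPAS2 rose by 3.95 without 6 mm replicate 2 and by 3.36 with it.

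Some of the most extreme values lay outside the rule for named genes and were singled out after their values were seen. LOC422926, a protein-coding gene without a symbol in the files (gene8938, chromosome 4, 86477615 to 86486827), was at 5071, 4347 and 5902 FPKM at 6 mm, more than any other called gene at that stage, and at 23.3, 5.64 and 16.6 FPKM at F5. It fell by 8.07 (standard error 0.73, edgeR adjusted p = 0.00759), was not theca-high, and in the mes GCs went from 5270 to 6687 FPKM down to 4.01 to 23.3 FPKM. LOC426093 (gene19784, chromosome 23, 2072075 to 2076222) rose from 232, 1216 and 492 FPKM to 4337, 4347 and 4083 FPKM, by 3.04, or 3.90 without 6 mm replicate 2. The lysosomal carboxypeptidase CTSA rose from 379, 1043 and 592 FPKM to 2538, 3263 and 3583 FPKM, and PLBD1, a phospholipase B domain protein, from 96.8, 323 and 89.5 FPKM to 866, 1183 and 1161 FPKM, by 2.98, or 3.86 without 6 mm replicate 2. TYRP1, a melanin pathway enzyme of pigment cells (gene22872, chromosome Z, 30823169 to 30833889), had no count at 6 mm in either NC or mes GCs and was at 7.604, 14.3 and 7.57 FPKM at F5. With 3 counts put in each NC 6 mm library it would be 249.7-fold higher at F5, which is not a lower bound. A locus on an unplaced scaffold, LOC107049318, showed nearly the same values (0 at 6 mm, then 7.35, 13.4 and 7.08 FPKM), so reads of the pair may have been split between near copies and TYRP1 is uncertain. LOC422926 lost its call without F5 replicate 3, TYRP1 and LOC107049318 without F5 replicate 2 or 3, and LOC426093, CTSA and PLBD1 without any library other than 6 mm replicate 2.

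The same stages in other hens gave a reading of these calls with little theca RNA, since the theca marker level of the mes GCs was 2.60 to 5.42 FPKM at 6 mm and 1.25 to 6.25 FPKM at F5. The level of 6.25 FPKM is that of mes F5 replicate 3, with 1.43 and 1.25 FPKM in replicates 1 and 2, and its part in the mes changes was not tested. No library is shared by the comparisons. In the mes GCs 640 of 16397 genes rose (3.9%) and 734 fell (4.48%). Of the 383 genes that rose in NC, 265 rose in mes (69.2% of the NC list and 41.4% of the mes list), and 376 of the 377 tested there had the same sign. Of the 371 falling genes that were not theca-high 254 fell in mes (68.5%), with the same sign in 363 of 365, and of the 248 theca-high falling genes 89 did (35.9%), with the same sign in 212 of 234. Median changes in NC and mes were 2.36 and 2.17 for the rising genes, -3.38 and -2.23 for the falling genes that were not theca-high, and -4.71 and -1.74 for the theca-high ones. No gene was called in opposite directions. A test of the difference between NC and mes in the change of each gene called 0 of 17681 genes by edgeR (1577 at an unadjusted p under 0.05), and DESeq2 called 428. Without NC 6 mm replicate 2 edgeR called 170.

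**Figure D5:**
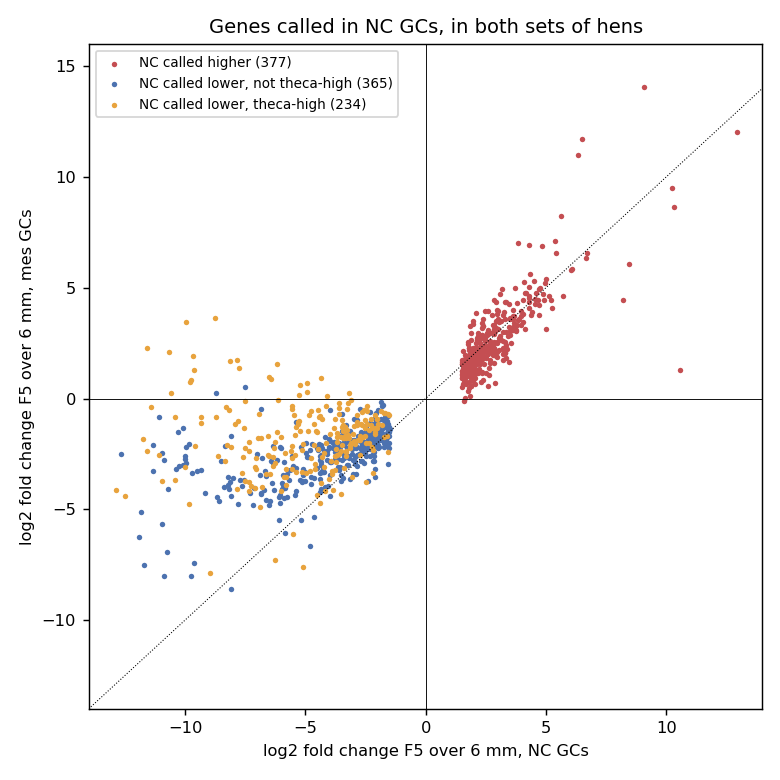
Log2 fold change of F5 over 6 mm in mes GCs against that in NC GCs for the genes called in NC and tested in both, with a dotted line where the values are equal. Rising genes lie near the line (376 of 377 above 0), while 22 of 234 theca-high falling genes lie above 0 in mes.

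The theca layer of the same NC hens changed less between these stages: 48 of 16554 genes rose (0.29%) and 195 fell (1.18%). The change in GCs lay above that in TCs for 556 of 18190 genes (3.06%) and below it for 1300 (7.15%) by the edgeR test of the difference. Of the 383 genes that rose in GCs, 169 (44.1%) changed more in GCs by this test, and their median change was 0.70 in TCs. Of the 371 falling genes that were not theca-high 216 (58.2%) fell more in GCs, and of the 248 theca-high ones 223 (89.9%) did. All these genes were called from the same GC libraries, which favours a larger change in GCs by this test. ZP3 rose in the TC libraries as well, from a mean of 156 to 1686 FPKM. INHA and WNT4 went from means of 2.098 and 1.10 FPKM to 297 and 169 FPKM there and missed the threshold (edgeR adjusted p = 0.0561 and 0.0740). Granulosa marker levels in these TC libraries, a mean that includes INHA itself, were 79.6 to 90.7 FPKM at 6 mm and 66.1, 124 and 178 FPKM at F5. The part of granulosa RNA in the TC values was not tested. For NR5A2 the difference between the layers was 6.89 (edgeR adjusted p = 0.0204), for ALB 6.51 (0.00490), for ATP8A1 4.56 (0.00185) and for RGS16 -4.11 (0.0262), while for HSD3B2 it was 0.91 (0.598).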

How the data were processed

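RNA-Seq was made from peeled granulosa and theca layers of White Leghorn hens. The authors aligned reads to Gallus_gallus-5.0 with HISAT2 2.1.0, assembled and quantified genes with StringTie 1.3.4d and tested with DESeq2 1.26.0, in the versions of the submitters' processing notes (the study's methods name another version of DESeq2). The deposited count table holds whole-number counts of 26624 genes in 54 libraries, made by the authors from StringTie coverage: between 26614 and 26619 genes per library lay within 1 count of coverage times length over 75, so a fully aligned pair of 150 base reads adds up to 4 counts and counts overstate the number of fragments. The deposited per-library annotation files hold FPKM and other values that the authors' StringTie run wrote per gene, and FPKM served for levels only. Genes without a symbol (1401) held at most 0.605% of counts, and 5 gene IDs were missing from the annotation files. Counting by strand is not given in the sources used here.

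The 6 NC GC libraries were tested with edgeR 4.0.16 in R 4.3.3 (quasi-likelihood) after TMM scaling and filterByExpr. Calls needed an adjusted p (Benjamini-Hochberg) of 0.05, an absolute log2 fold change of 1.5 and a mean of 1 FPKM at either stage, thresholds taken from the study's methods. The same test was run on mes GCs and on models with an interaction of stage with layer or with treatment. Alternatives were RLE scaling, DESeq2 1.42.0, limma 3.58.1 (voom with quality weights), no low-count filter, no fold threshold, all 27 GC libraries in one fit, each library left out, the hen as a replicate block, the theca marker level as a covariate, and 6 mm replicates 1 and 3 left out. Only FPKM was compared between genes.

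Follicles with the same number came from the same hen by the study's sample list. Deviations from the stage mean correlated within hens with r = 0.266, 0.248 and -0.0006 in NC and 0.148, 0.209 and 0.200 in mes over 16279 genes. Between different hens r ran from -0.297 to 0.0921 in NC and from -0.155 to -0.0209 in mes. The value of hen 3 in NC lay within the range of different hens. The main edgeR p-values treat the libraries as unpaired and measure the spread within each stage over 3 hens. Only the fits with the hen as a block use the pairing. No libraries were duplicates (chi-square per degree of freedom 15.5 to 44.3). Depth was 33513156 to 55378619 counts. A floor of 3 counts in a library is less than the 4 counts that a fully aligned pair can add, so folds against it are not lower bounds.

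Genes were named by rule: the 10 rising and 10 falling genes of smallest p with a symbol and no overlap between stages, the 5 and 5 of largest change with at least 10 FPKM, the 10 falling genes of smallest p that were not theca-high, and called members of gene lists. Some genes named by these rules are not reported here. The members and lists were chosen with earlier results of these data known. No sequences and no motif search are given. The tests were tested on simulated counts.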

Additional observations from a re-analysis of the deposited data

Results flagged for a closer look

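For 26 genes named for their p or the size of their change, the change from 6 mm to F5 differed between the layers of the NC hens by the edgeR interaction test (adjusted p from 0.000333 to 0.0384). Over all 18190 genes tested the change in GCs lay above that in TCs for 3.06% and below it for 7.15%. TFAP4, FIBIN, ADGRD2 and CEL, described above among the rises, are not among the 26. The values are the log2 change in GCs minus that in TCs. The genes were named from these same GC libraries, which favours a larger change in GCs, so the adjusted p-values are not independent evidence. Genes that rose more in GCs were NR5A2 (6.891), ALB (6.515), ATP8A1 (4.556), FDX1L (4.003), RASD1 (3.947), VPS13A (3.875), LYPD6 (3.636), TPST1 (2.585) and CES1 (2.035). Among genes that were not theca-high, those that fell more in GCs were TUBB6 (-3.731), ATP8A2 (-3.72), GNG10 (-3.399), MYCL (-2.721), DGKQ (-2.606), MPZL3 (-2.486), NEDD4L (-2.441), PGBD5 (-2.42), BACH2 (-1.377) and SNX5 (-1.057). The theca-high genes TAGLN (-12.41), IGLL1 (-11.14), GRP (-10.51), COL6A1 (-9.754), PDZRN3 (-6.897), TACC1 (-3.792) and GPR162 (-3.612) also fell more in GCs. In 6 mm replicate 2, TAGLN, IGLL1, GRP and COL6A1 were at 0.153 to 2.17 FPKM, and PDZRN3, TACC1 and GPR162 at 4.34 to 7.52 FPKM. The part of theca RNA in these differences was not tested.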

How the results depend on the processing

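Against 383 rising and 619 falling genes in NC GCs, limma-voom with quality weights called 705 and 1148, DESeq2 563 and 1596, all 27 GC libraries in one fit 292 and 320, and no fold threshold 719 and 763. With the theca marker level as covariate, or with 6 mm replicates 1 and 3 both left out, edgeR called 0 and 0 genes (2024 and 2454 at an unadjusted p under 0.05). With single libraries left out the rising genes ranged from 9 to 642 and the falling genes from 1 to 1118, in both cases lowest without F5 replicate 3 and highest without 6 mm replicate 2. RLE scaling gave 356 and 623 and no low-count filter 342 and 467. In mes GCs no fold threshold gave 2166 rising and 1871 falling genes against 640 and 734, and leaving out 1 library gave 520 to 640 and 502 to 693. The difference between the layers was called for 1246 genes above and 2267 below by DESeq2 against 556 and 1300 by edgeR, and for 168 to 959 and 381 to 2281 with single libraries left out. The difference between NC and mes was called for 428 genes by DESeq2 and for 0 to 170 with single libraries left out. A theca-high threshold of 5 times left 44 of the 115 rising and 179 of the 248 falling genes. COL6A1 changed sign with the theca marker covariate (0.0827, edgeR adjusted p = 0.983).

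With the hen as a replicate block 384 genes rose and 431 fell, 314 and 347 of them among the 383 and 619, the layers differed for 412 and 943 genes, and NC and mes for 2. The called genes named in the text, CLDN5 not counted, numbered 110. Of these, 17 lost the call in this fit, 1 with RLE scaling, 6 with voom, 6 without the filter and 49 with all GC libraries. The cause of a lost call was not tested in any alternative. In the fit with the theca covariate, stage and theca RNA cannot be told apart. The planned search of promoters for motifs was not run. Depth limits values near a floor of 3 counts in each library.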
